A study of Mus musculus with 84 samples.

Results

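The collagens, the laminin chains and the other basement membrane genes were described in 84 single endothelial-sorted cells of the mouse AGM at E11.5. The AGM (aorta, gonad and mesonephros) is the part of the embryonic trunk around the dorsal aorta. The members are 61 of the 20308 genes of the deposited table: every gene whose symbol has the form of a collagen chain or a laminin chain, together with Nid1, Nid2, Hspg2, Agrn, Sparc and Fn1. All 84 cells came from 1 sort, CD31+CD144+CD41-CD45-, which takes cells with the endothelial surface proteins CD31 and CD144 and leaves out cells with the blood cell proteins CD41 and CD45. The labels give no strain, genotype or treatment and do not tie cells to embryos. The cells are therefore 1 group, counted as 1 sample, with no control group among them, and every value below is a description over cells with no test. Levels are TPM, a unit scaled by transcript length, so that genes can be set side by side. Detected means a level of at least TPM 1 in the cell.

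A basement membrane is the thin sheet of matrix on which endothelial and epithelial cells sit. It is built from a network of type IV collagen and a network of laminin trimers, joined by nidogens and heparan sulfate proteoglycans. Fibrillar collagens, such as types I and III, form the rope-like fibres of the connective tissue around vessels and are made mostly by mesenchymal cells. Endothelial cells lay down much of their own basement membrane, with the laminin α4 chain known as the early vascular one and α5 as one that joins later in development.

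The members fall into a basement membrane core of 23 genes (6 type IV collagens, 11 laminin chains, 4 linkers and proteoglycans, and the multiplexins Col15a1 and Col18a1), 11 fibrillar collagens, the partners Sparc and Fn1, and 25 other collagens. Of the 61 members, 17 were detected in at least 42 of the 84 cells, 39 in at least 5 cells, 15 in 1 to 4 cells and 7 in 0 cells. Over all 20308 genes, 34.6% were detected in at least 42 cells and 26% in 0 cells. The core placed 11 of its 23 genes among those detected in at least 42 cells, and the fibrillar collagens 2 of 11. A median of 18 members was detected per cell, from 13 to 30. Together the members took a median of 0.173% of a cell's TPM, from 0.0390% to 0.447%.

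Promoter sequences are shown for 5 places because they set a pair of abundant core genes with a common start region beside core and fibrillar genes with separate ones. RefSeq promoters (assembly GRCm38.p6, the same as mm10) were matched for 44 of the 61 members. Each window runs from 250 bases before to 50 bases after 1 start site of the gene. That site is not always the end of the gene span, and for some members it lies inside the span. Col4a1 and Col4a2, the chains of the main type IV collagen trimer, lie head to head on chromosome 8, and their start sites are 21 bases apart. In the first line below, capitals run from the Col4a2 start site at 11312805 to the Col4a1 start site at 11312826 on the plus strand (chr8:11312801-11312830). In the other lines, each 5′ to 3′ on the strand of its gene, the printed bases are the longest stretch before the start that lies in no exon of the GENCODE M21 annotation. Capitals there mark matches on either strand to TATAAA (the core of the TATA box), to CCAAT (the CCAAT box) and to GGGCGG (the GC box). The stretches are chr10:77166549-77166780 on the minus strand for Col18a1, and, on the plus strand, chr13:13437352-13437550 for Nid1, chr6:4505370-4505492 for Col1a2 and chr1:45311288-45311537 for Col3a1. They end 18, 51, 125 and 0 bases before the start site, in that order, so matches nearer the start are not printed.
Col4a1 and Col4a2: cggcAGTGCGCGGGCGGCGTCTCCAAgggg
Col18a1: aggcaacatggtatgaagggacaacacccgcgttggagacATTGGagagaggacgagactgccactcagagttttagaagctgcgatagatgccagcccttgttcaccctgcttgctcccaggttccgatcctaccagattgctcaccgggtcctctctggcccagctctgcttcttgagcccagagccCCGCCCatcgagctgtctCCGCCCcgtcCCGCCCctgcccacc
Nid1: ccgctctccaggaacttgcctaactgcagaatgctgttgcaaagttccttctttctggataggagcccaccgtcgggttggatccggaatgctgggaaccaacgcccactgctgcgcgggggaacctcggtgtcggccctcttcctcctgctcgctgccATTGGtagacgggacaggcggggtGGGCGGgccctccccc
Col1a2: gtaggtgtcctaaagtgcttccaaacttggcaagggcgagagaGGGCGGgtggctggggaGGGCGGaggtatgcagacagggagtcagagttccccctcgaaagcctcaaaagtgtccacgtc
Col3a1: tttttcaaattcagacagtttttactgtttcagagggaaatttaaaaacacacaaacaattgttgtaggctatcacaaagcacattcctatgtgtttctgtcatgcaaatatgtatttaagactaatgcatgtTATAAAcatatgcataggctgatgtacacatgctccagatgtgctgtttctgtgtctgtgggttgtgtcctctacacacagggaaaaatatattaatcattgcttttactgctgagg

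The Col4a1 and Col4a2 windows of 300 bases share 78 bases (chr8:11312777-11312854) and hold 74% and 73.7% G and C, with 37 and 33 CpG dinucleotides. The Col3a1 window holds 37.7% G and C and 0 CpG, with 1 match to TATAAA. The Col1a2 window holds 61% G and C, with 2 matches each to CCAAT and GGGCGG, of which those to CCAAT lie outside the printed stretch. Over all 27018 RefSeq windows, 14.2% held TATAAA, 37.9% held CCAAT and 35.9% held GGGCGG, and the median G and C content was 52.7%. Among the 15 core members with a window, 0 held TATAAA, 6 held CCAAT and 11 held GGGCGG, with a median G and C content of 63.3%. Among the 8 fibrillar collagens with a window, 2 held TATAAA, 3 held CCAAT and 6 held GGGCGG, with a median of 61.3%. Both medians lay above that of all windows, and Col3a1 stood at the low end of the fibrillar range in G and C content. A match is a description of the letters and not a bound site.

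A median of 6978 genes was detected per cell, from 3334 to 10073. Read numbers cannot be had from TPM, so the depth behind each value is unknown, and a 0 can be a transcript lost in capture. Endothelial identity was checked with 17 endothelial markers: 80 cells held at least 3 of them at TPM 10 or more, 72 cells held at least 12, and 75 cells held both Pecam1 and Cdh5, which encode CD31 and CD144. Mesenchyme was checked with 14 non-collagen markers, among them Prrx1, Pdgfra and Lum: 32 cells held at least 3 at TPM 10 or more. These 32 are called mesenchyme-marked cells below, which names a range of a count and not a cell type, since 12 cells held 2 markers and 8 cells held 3. Between 0 and 4 cells held at least 3 markers of each of smooth muscle, cartilage, epithelium, skeletal muscle, nerve, erythroid, macrophage and megakaryocyte lists, 15 cells in all.

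Col4a1 was detected in 84 of 84 cells (100%, exact Clopper-Pearson interval from 95.7% to 100%), which made it the type IV chain seen in every cell. Its level ran from 1.25 TPM to 461 TPM with a median of 152 TPM, and 79 cells reached TPM 10. Col4a2, its partner chain, was detected in 82 cells (97.6%, from 91.7% to 99.7%), with a lowest value of 0.32 TPM, a median of 82.4 TPM and a highest of 597 TPM. The intervals given for shares of cells cover counting error over cells alone. The chains of the type IV trimers of kidney, eye and other specialised membranes were rare. Col4a5 was detected in 13 cells, with a median of 0 TPM and a highest of 65.1 TPM, Col4a6 in 4 cells and Col4a4 in 1 cell. Col4a3 was detected in 0 of 84 cells, for which the exact interval ends at 4.30% of cells and a limit of 3 counts in 84 at 3.57%.

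Among the laminins, 1 chain of each kind was detected in most cells: Lama4, Lamb1 and Lamc1. Lama4 encodes the α4 chain and was detected in 82 cells (97.6%), from 0 TPM to 467 TPM with a median of 51.2 TPM. Lamb1 encodes β1 and was detected in 81 cells (96.4%), from 0 TPM to 361 TPM with a median of 49.8 TPM. Lamc1 encodes γ1 and was detected in 78 cells (92.9%), from 0.06 TPM to 157 TPM with a median of 30.5 TPM. The 3 medians lie within a narrow band, while each gene spans a wide range over cells. The next chain by number of cells was Lamb2 (β2), detected in 20 cells with a highest value of 95.5 TPM, followed by Lama2 in 9 cells and Lama1 in 8 cells. Lama5, the α5 chain, was detected in 3 cells and reached 9.07 TPM at most. Lama3 was detected in 3 cells and Lamc3 in 2, while Lamb3 was detected in 0 cells.

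A laminin is a trimer of 1 α, 1 β and 1 γ chain. The α4, β1 and γ1 chains, which make up the vascular laminin, were detected together in 74 of 84 cells (88.1%, exact interval from 79.2% to 94.1%). With β2 in place of β1, all chains were detected in 17 cells (20.2%, from 12.3% to 30.4%). With α5 in place of α4, they were detected in 3 cells (3.57%, from 0.743% to 10.1%). With α1 or α2 beside β1 and γ1, all chains were detected in 7 cells each. The Lama5 transcript is long, with 11388 bases in its longest coding form against 6046 for Lama4, and detection in relation to transcript length was not tested. RNA from single cells does not show which trimers were assembled.

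The linkers and proteoglycans were detected in most cells, at levels that differed between them. Nid1, a nidogen that joins laminin to type IV collagen, was detected in 83 cells, from 0.42 TPM to 618 TPM with a median of 109 TPM. Nid2, the other nidogen, was detected in 66 cells, from 0 TPM to 239 TPM with a median of 25 TPM. Hspg2, which encodes perlecan, the main heparan sulfate proteoglycan of vessels, was detected in 79 cells, with a median of 15.9 TPM and a highest value of 67.3 TPM. Agrn, which encodes agrin, was detected in 67 cells, with a median of 7.85 TPM and a highest of 140 TPM. The multiplexins are collagens of the basement membrane zone that carry sugar chains, and type XVIII releases endostatin, an anti-angiogenic fragment. Col18a1 was detected in 82 cells, from 0.23 TPM to 800 TPM with a median of 139 TPM, close to that of Col4a1. Col15a1 was detected in 71 cells, from 0 TPM to 99.6 TPM with a median of 10.8 TPM.

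Sparc, a matrix glycoprotein that binds collagen, had the highest level of all members. It was detected in 83 cells, from 0.62 TPM to 2279 TPM with a median of 714 TPM, and its median ranked 209 among the 20308 genes. Fn1, which encodes fibronectin, was detected in 73 cells, from 0.07 TPM to 612 TPM with a median of 36.2 TPM. By median the order of the members was Sparc, Col4a1, Col18a1, Nid1, Col4a2, Lama4, Lamb1, Fn1, Lamc1, Nid2, Hspg2, Col15a1, Col5a2 and Agrn. The ranges over cells of these 14 genes overlap throughout.

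**Figure D1:**
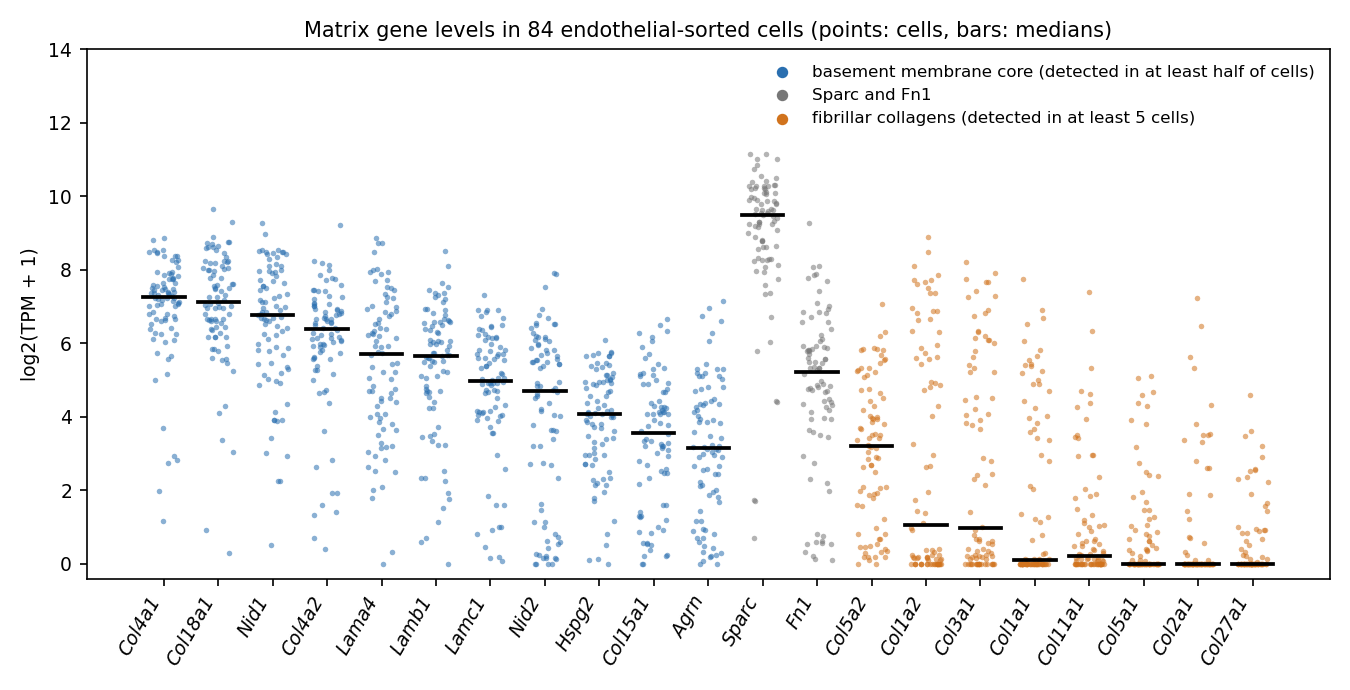
Levels of 21 members as log2(TPM + 1) on the vertical axis, with 1 point per cell (84 cells per gene) and black bars at the medians. Shown are the 11 core genes detected in at least 42 cells, Sparc and Fn1, and the 8 fibrillar collagens detected in at least 5 cells. Core and fibrillar genes were thus chosen at unlike cuts, and core genes detected in fewer than 42 cells are not shown. The core genes shown form broad clouds around medians well above 0, which the cut favours. Sparc lies highest. The fibrillar collagens, apart from Col5a2, have many points near 0 with a scatter of high cells.

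Each fibrillar collagen was detected in fewer cells than any of the 11 core genes that were detected in at least 42 cells. The remaining core genes were detected in 0 to 20 cells, so this contrast does not hold for the core as a whole. Col5a2, a chain of the minor type V collagen that seeds fibrils, was detected in 64 cells (76.2%, exact interval from 65.7% to 84.8%), from 0 TPM to 133 TPM with a median of 8.28 TPM. Col1a2, a chain of type I collagen, was detected in 42 cells (50%, from 38.9% to 61.1%), from 0 TPM to 471 TPM with a median of 1.06 TPM. Col3a1, the type III chain, was detected in 41 cells (48.8%, from 37.7% to 60%), from 0 TPM to 296 TPM with a median of 0.95 TPM. For Col1a2 and Col3a1 the cells split into a large share near 0 and a share far above TPM 10. Col1a1, the main chain of type I collagen, was detected in 34 cells (40.5%), with a median of 0.080 TPM and a highest value of 214 TPM.

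The remaining fibrillar collagens were detected in smaller shares of the cells. Col11a1 was detected in 25 cells and reached 167 TPM, Col5a1 in 22 cells and reached 33.5 TPM, Col2a1 in 18 cells and reached 150 TPM, and Col27a1 in 16 cells and reached 23 TPM. Col24a1 was detected in 2 cells, and Col5a3 and Col11a2 in 0 cells. Type II, IX and XI collagens are the collagens of cartilage. Of the 9 cells with Col2a1 at TPM 10 or more, 6 also held Sox9, the transcription factor of early cartilage, at TPM 10 or more, against 19 of the other 75 cells. Col9a1 reached TPM 10 in 4 cells, with a highest value of 391 TPM, and 4 held Sox9, against 21 of the other 80. For Col9a2 the counts were 3 of 5 cells against 22 of 79, and for Col11a1 4 of 9 against 21 of 75. Of the cells with these genes at TPM 10 or more, the mesenchyme-marked ones numbered 8 of 9 for Col2a1, 4 of 4 for Col9a1, 3 of 5 for Col9a2 and 6 of 9 for Col11a1. Sox9 itself reached TPM 10 in 18 of 32 mesenchyme-marked cells and 7 of 52 others. Of the other cartilage or sclerotome markers, Pax9 was detected in 17 cells, Sox5 and Pax1 in 8 each, Acan in 1, and Matn1, Matn4 and Nkx3-2 in 0.

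Set against each other within each cell, the summed TPM of the 23 core genes exceeded that of the 11 fibrillar collagens in 80 of 84 cells (95.2%, exact interval from 88.3% to 98.7%). The core sum ran from 103 TPM to 2118 TPM with a median of 857 TPM. The fibrillar sum ran from 0.37 TPM to 888 TPM with a median of 37.2 TPM. The core thus varied over about 1 order of magnitude and the fibrillar sum over more than 3. The core made up a median of 96.0% of the core plus fibrillar TPM, with quartiles of 79.5% and 99.0% and a lowest value of 25.6%. It reached 90% or more in 50 cells. Counted by genes, a median of 11 core genes was detected per cell, from 6 to 14, and a median of 2 fibrillar collagens, from 0 to 8.

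The 4 cells with more fibrillar than core TPM were all mesenchyme-marked. Cell 13 held 249 TPM of core against 724 TPM of fibrillar collagen, with 7 mesenchyme markers and 2 of 17 endothelial markers at TPM 10 or more. Cell 38 held 399 TPM against 527 TPM, with 8 mesenchyme and 9 endothelial markers. Cell 65 held 103 TPM against 145 TPM, with 4 mesenchyme and 0 endothelial markers, and cell 78 held 199 TPM against 432 TPM, with 5 and 4. Their detected genes numbered from 4938 to 8511, inside the range of the other cells. In the 52 cells that were not mesenchyme-marked the core sum was the higher in 52, and its median share was 98.8%. In the 32 mesenchyme-marked cells it was the higher in 28 (87.5%, exact interval from 71% to 96.5%), and its median share was 75.3%.

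**Figure D2:**
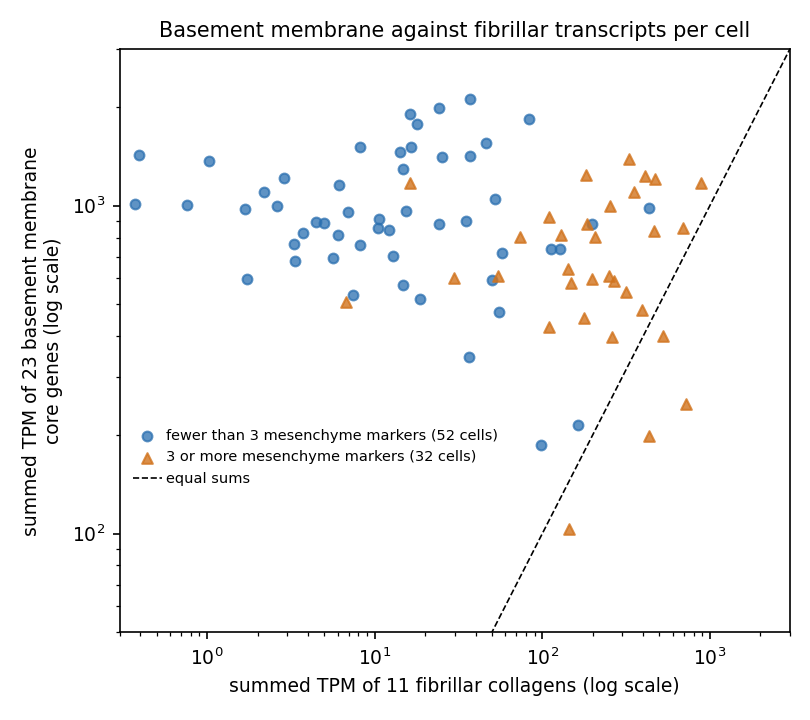
Summed TPM of the 23 core genes (vertical axis, log scale) against that of the 11 fibrillar collagens (horizontal axis, log scale) in each of 84 cells, with triangles for the 32 mesenchyme-marked cells, circles for the 52 other cells and a dashed line at equal sums. All but 4 points lie above the line, and those 4 are triangles, while the triangles lie mostly at 100 TPM of fibrillar collagen or more.

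High type I or III collagen was found in cells with both Pecam1 and Cdh5 at TPM 10 and in cells without. Col1a1, Col1a2 or Col3a1 reached TPM 10 in 37 of 84 cells (44%, exact interval from 33.2% to 55.3%). Of these 37 cells, 28 held both Pecam1 and Cdh5 at TPM 10 or more, and 27 held at least 12 of the 17 endothelial markers. Of the 47 cells with none of the 3 collagens at TPM 10, 47 held both Pecam1 and Cdh5 and 45 held at least 12 endothelial markers, so the 9 cells that lacked one or both of Pecam1 and Cdh5 at TPM 10 were all among the 37. Mesenchyme-marked cells accounted for 29 of the 37, and 8 were outside that class. No doublet caller was run, and whether a capture site held more than 1 cell was not tested.

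Chains of the same trimer were compared for their ratio and their joint detection. Col4a1 and Col4a2 were detected together in 82 cells, where Col4a1 was the higher in 66 and the median ratio was 1.74, with quartiles of 1.09 and 3.26. Their levels had a Spearman rho of 0.45 and a Pearson r of 0.62 over the 84 cells. The spans of the genes share 85 bases, where the Col4a1 span runs to 11312889, past the start site used for its promoter window. Reads from that stretch cannot be told apart without strand, which the sources used here do not give. Type I collagen is made of α1 and α2 chains, with α1 in excess in the common trimer. Col1a1 and Col1a2 were detected together in 32 cells, against 17 if detection were independent. Col1a1 was the higher in 5 of those 32, and the median ratio of Col1a1 to Col1a2 was 0.247, with rho of 0.79. Col1a2 and Col3a1, of different trimers, were detected together in 37 cells, against 20.5 under independence, with rho of 0.82.

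Some other neighbours and partners had lower correlations over cells. Col3a1 and Col5a2 are neighbours on chromosome 1, with 24624 bases between them. They were detected together in 31 cells, against 31.2 under independence, with rho of 0.12. Nid1 and Nid2 were detected together in 65 cells, against 65.2 under independence, with a median ratio of 3.96 and rho of 0.14. Nid1 was detected in 83 of the 84 cells, so that joint count could hardly depart from independence. The same holds for genes detected in most cells, such as the laminin chains that follow. The laminin chains found in most cells had rho of 0.19 between Lama4 and Lamb1, 0.04 between Lama4 and Lamc1 and 0.16 between Lamb1 and Lamc1. Where Lamb1 and Lamb2 were both detected, in 20 cells, Lamb1 was the higher in 19 and the median ratio was 11.2. Col15a1 stood at a median of 0.087 times Col18a1 in the 71 cells with both. All correlations in these data are over cells of 1 group with a common normalization, and they are descriptions. Libraries were read 24 to a lane, and chip and lane were not taken into account.

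**Figure D3:**
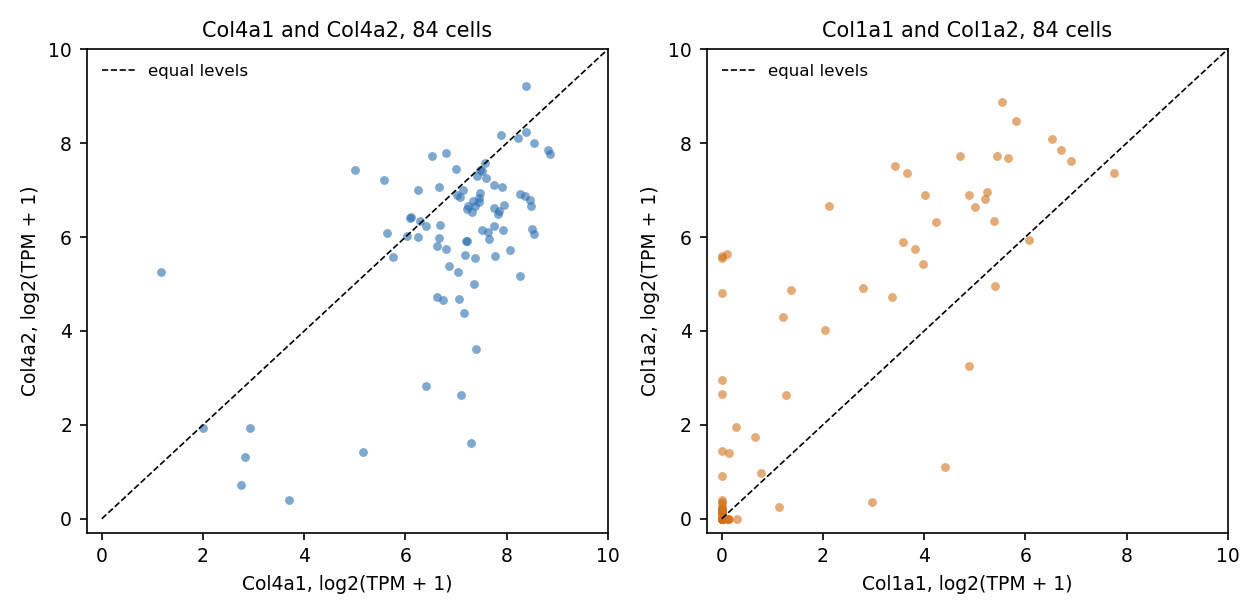
Levels of the type IV pair (left, Col4a1 horizontal and Col4a2 vertical) and the type I pair (right, Col1a1 horizontal and Col1a2 vertical) as log2(TPM + 1), with 1 point per cell and a dashed line at equal levels. Most of the 84 type IV points lie in 1 cloud below the line, while the type I points divide between the origin and a scatter above the line.

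Among the 25 other collagens, Col22a1, Col23a1 and Col26a1 were detected most widely. Col22a1, a fibril-associated chain known from tissue junctions, was detected in 80 cells but reached TPM 10 in 3, with a median of 2.80 TPM and a highest value of 11.4 TPM. Col23a1, a transmembrane collagen, was detected in 51 cells, from 0 TPM to 209 TPM with a median of 4.12 TPM. Col26a1 was detected in 31 cells and reached 230 TPM, and Col25a1, another transmembrane collagen, in 18 cells and reached 179 TPM. Type VI collagen, a microfibril of connective tissue, was rare: Col6a2 was detected in 12 cells, Col6a1 in 8, Col6a3 in 6 and Col6a6 in 1. Of the fibril-associated chains, Col9a2 and Col12a1 were each detected in 10 cells, Col9a1 and Col14a1 in 7, Col9a3 and Col16a1 in 3, Col19a1 in 2 and Col20a1 in 1. Col8a2 and Col10a1 were each detected in 6 cells, Col13a1 in 5, Col8a1 in 3, and Col7a1 and Col17a1 in 1. Col6a4, Col6a5 and Col28a1 were detected in 0 cells, and Col6a5 and the fibrillar Col5a3 were listed at 0 in every cell.

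The members were then set out by class, as the mean log2(TPM + 1) of the 32 mesenchyme-marked cells minus that of the 52 other cells. The comparison takes the 12318 genes detected in at least 5 cells, of which 456 (3.7%) were higher by 1 or more and 577 (4.68%) lower by 1 or more in the mesenchyme-marked cells, with a median of -0.03. Of the 8 fibrillar collagens that entered, 5 were higher by 1 or more and 0 lower, and their median difference was 1.34. Of the 15 core genes that entered, 0 were higher by 1 or more and 2 lower, with a median of -0.53. That count of 2 was not stable: it was 0 with a pseudocount of 10, 1 with 2 or with 4 markers required or without Fbn2 in the marker list, 3 with a pseudocount of 0.1 or with markers counted at TPM 1, and 8 between 2 Ward clusters. The fibrillar count of 5 was 3 with a pseudocount of 10, 7 with one of 0.1, 4 between the Ward clusters and 5 otherwise. Lower by any amount were 13 of the 15 core genes, against 52.8% of all genes. A gene can pass the filter on detection through the class where it is high, so these counts describe the members that passed and no more. The fibrillar median was 2.57 with a pseudocount of 0.1 and 0.51 with one of 10, and the core median was -1.03 between 2 Ward clusters of 23 and 61 cells in place of the marker classes. The median of all genes between those clusters was -0.16. With every gene above 0 in any cell taken in, the medians were 0.99 for the fibrillar collagens and -0.13 for the core. Endothelial markers moved with the class: 17 of 17 were lower in the mesenchyme-marked cells, 12 by 1 or more, with a median of -1.13. The summed TPM of these markers ran from 6.72 to 5699 with a median of 2704 in the mesenchyme-marked cells, and from 41.8 to 10597 with a median of 4229 in the others. Their part in the differences of the core genes was not tested.

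Type I and type III collagens showed the greatest differences among the members. Col1a2 ran from 0.14 TPM to 471 TPM with a median of 99.3 TPM in the mesenchyme-marked cells, and from 0 TPM to 78.6 TPM with a median of 0.105 TPM in the others, a difference of 5.06. It reached TPM 10 in 27 of 32 cells against 6 of 52. Col3a1 had a median of 55.6 TPM against 0.170 TPM and a difference of 4.15, with 27 of 32 cells against 7 of 52 at TPM 10. Single cells outside the class still held much Col3a1, up to 202 TPM. Col1a1 had a median of 26.9 TPM against 0 TPM and a difference of 3.63, with 22 against 2 cells at TPM 10. Each of these 3 genes stayed higher by 1 or more under all 9 alternatives. The alternative that takes in every gene above 0 in any cell cannot change the difference of a single gene. Counts out of 9 for single genes, here and below, include it. Col11a1 was higher by 1.44 and Col2a1 by 1.25, with 8 against 1 cells at TPM 10 for Col2a1, which was under 1 in 3 of the 9 alternatives, with 0.58 between the Ward clusters. Col27a1 had a difference of 0.73 and Col5a1 of 0.56. Col5a2 stood apart, with a median of 9.48 TPM against 7.95 TPM and a difference of 0.22.

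Core genes differed less between the classes, and their ranges overlapped almost fully. Lama4 had the lowest difference among the members, -1.16: it ran from 0.26 TPM to 173 TPM with a median of 26.7 TPM in the mesenchyme-marked cells, and from 0 TPM to 467 TPM with a median of 73.8 TPM in the others. Over the 9 alternatives it ran from -2.12 to -0.80 and was lower by 1 or more in 6, with the alternative that cannot change it counted. Col4a2 differed by -1.01, with medians of 77.6 TPM and 90.8 TPM. It was lower by 1 or more in 4 of 9 alternatives, counted in the same way, and ran from -1.83 to -0.61. Col4a1 differed by -0.80, with medians of 141 TPM and 166 TPM. Hspg2 differed by -0.88, Col18a1 by -0.81, Col15a1 by -0.72, Lamc1 by -0.67, Nid1 by -0.53, Nid2 by -0.43 and Agrn by -0.39. Lamb1 differed by -0.04, with medians of 51.3 TPM and 48.6 TPM. Lamb2 and Lama1 were the core genes with a higher mean in the mesenchyme-marked cells, by 0.58 and 0.24. Sparc differed by -0.69, with medians of 522 TPM and 802 TPM. Fn1 went the other way, with medians of 50.7 TPM and 26.8 TPM and a difference of 1.41, or 0.94 without Fbn2 in the marker list.

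Of the 14 other collagens detected in at least 5 cells, Col26a1 was higher by 1.79 and Col6a2 by 1.09, with Col6a2 detected in 11 mesenchyme-marked cells and 1 other cell. Col6a2 was higher by under 1 in 3 of the 9 alternatives. The rest ran from -0.04 for Col22a1 to 0.84 for Col25a1. Col23a1 had medians of 4.18 TPM and 4.12 TPM and a difference of 0.31. Genes detected per cell had medians of 6889 in the mesenchyme-marked cells and 7032 in the others.

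**Figure D4:**
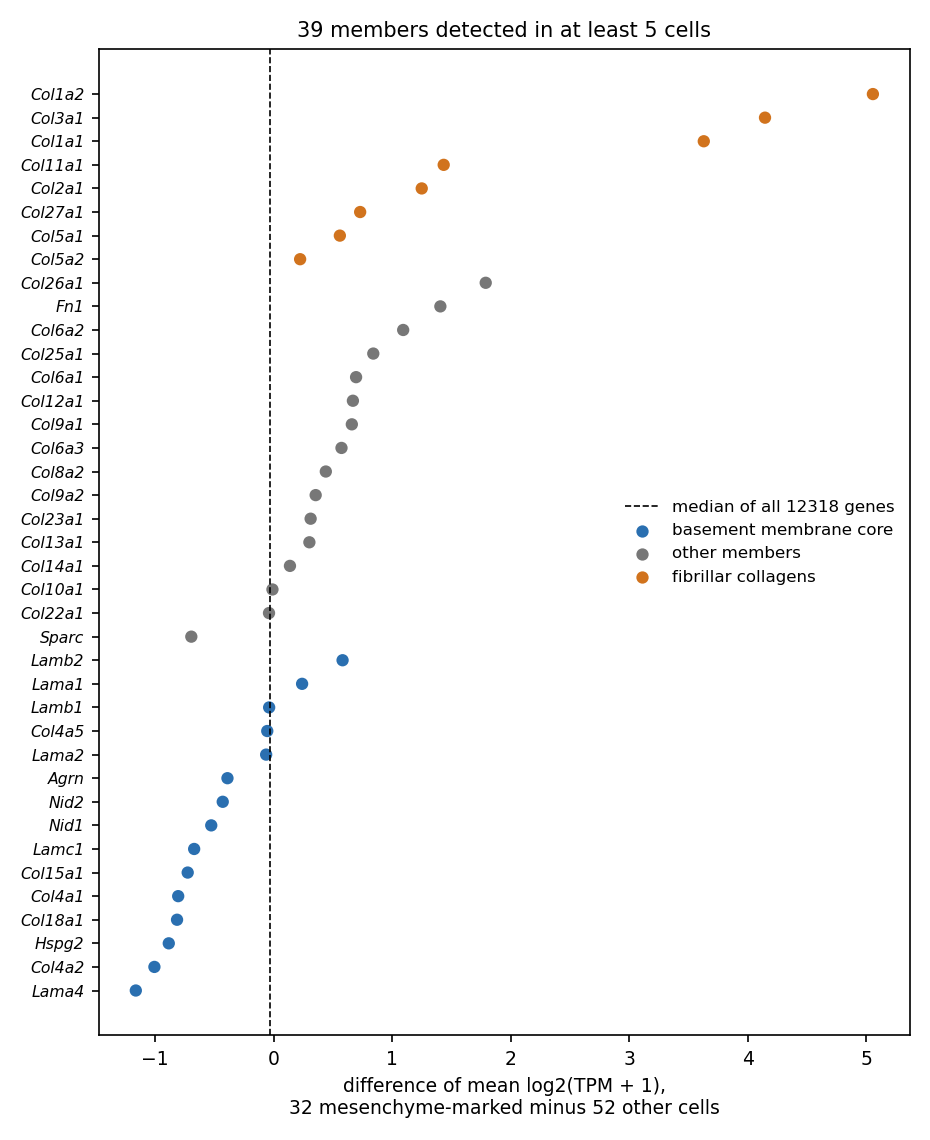
Difference of mean log2(TPM + 1) between the 32 mesenchyme-marked and the 52 other cells (horizontal axis) for the 39 members detected in at least 5 cells (1 row each), with a dashed line at the median of all 12318 genes. All 8 fibrillar collagens lie to the right of the line, from 0.22 to 5.06, and the core genes lie between -1.16 and 0.58.

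Levels over cells were compared among members detected in at least 20 cells. The 66 pairs of 12 core genes had a median Spearman rho of 0.17, from -0.10 to 0.57, and the 15 pairs of 6 fibrillar collagens one of 0.38, from 0.07 to 0.82. The 72 pairs of a core and a fibrillar gene had a median of -0.08, and all pairs of the 9683 genes with as many cells one of 0.03. The highest values with Col4a1 among the members were Sparc at 0.68, Hspg2 at 0.57 and Col15a1 at 0.51. Those with Lama4 were Hspg2 at 0.45, Col4a2 at 0.42 and Col15a1 at 0.41. Number of genes detected per cell had rho of 0.41 with the number of core genes detected and of 0.10 with the number of fibrillar collagens detected. With the summed TPM of either set it had rho between -0.05 and -0.03.

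**Figure D5:**
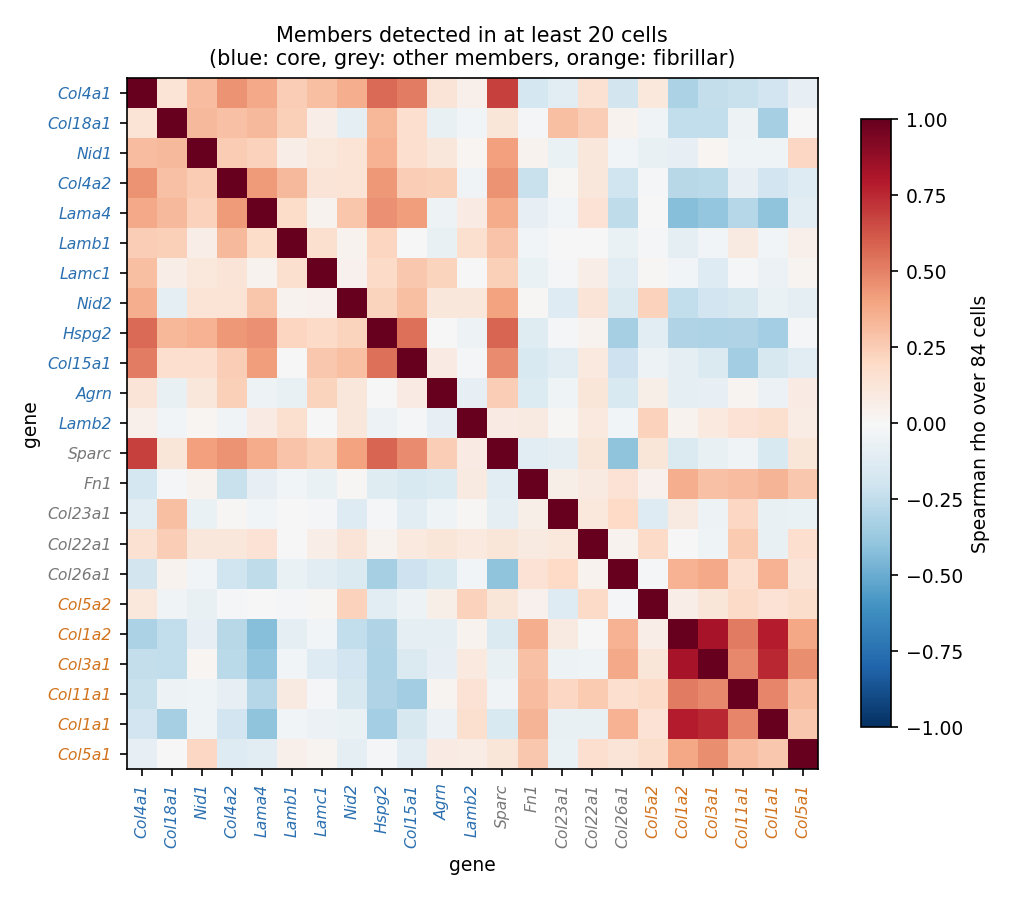
Spearman rho over 84 cells between the 23 members detected in at least 20 cells, with the same genes on both axes and colour from blue (-1) to red (1). Col1a1, Col1a2 and Col3a1 form the strongest block, from 0.75 to 0.82, and the core genes a paler one led by Col4a1, Hspg2, Col15a1 and Col4a2, with Sparc beside it.

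Outside the listed genes, 9595 were compared for likeness to 3 members by Spearman rho over the 84 cells. With Col4a1 the 5 highest were Cd93 at 0.72, a surface glycoprotein of endothelial cells, Vamp5 at 0.64, Mcam at 0.61, an adhesion molecule of vessels, Cyyr1 at 0.58 and Cd38 at 0.55. With Lama4 they were Ctsz at 0.55, Tubb6 at 0.54, S100a16 at 0.51, Tmem255a at 0.50 and Gnai2 at 0.50. With Col3a1 they were Gpc3 at 0.75, a cell surface proteoglycan, Crabp2 at 0.69 and Crabp1 at 0.65, which bind retinoic acid in the cell, Peg3 at 0.65 and Vcan at 0.65, which encodes the proteoglycan versican. These values are the top of many and carry no test.

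All 84 cells held at least 3 genes of the list for collagen synthesis and assembly at TPM 10 or more. Ppib and Serpinh1 reached that level in 84 and 82 cells, so the count says little about the rest of the list. Of 16 measured genes for collagen synthesis and assembly, 7 were detected in at least 42 cells, against 34.6% of all genes. Ppib, a prolyl isomerase of the endoplasmic reticulum, was detected in 84 cells with a median of 821 TPM, and Serpinh1, the collagen chaperone Hsp47, in 84 cells with a median of 94.6 TPM. Leprel1, a prolyl hydroxylase, was detected in the fewest, 17 cells. Between the classes 1 of 16 was higher by 1 or more, Plod2, a lysyl hydroxylase, at 1.10, against 3.7% of all genes. Colgalt1, which adds galactose to collagen, was the 1 lower by 1 or more, at -1.69, against 4.68% of all genes. A count of 1 in a list of this size is near those shares. Counts of 1 or 2 in short lists are not read as a result, here or in the pathway lists that follow.

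Of 13 genes for processing and crosslinking, 5 were detected in at least 42 cells, against 34.6% of all genes. Pxdn, a peroxidase that crosslinks type IV collagen, was detected in 80 cells with a median of 53.2 TPM. Adamts2, which trims fibrillar procollagens, was detected in 69 cells with a median of 2.26 TPM and a highest value of 7.27 TPM. Loxl4 was detected in the fewest, 1 cell. Pcolce, an enhancer of procollagen trimming, was detected in 28 cells. It was the 1 of 11 genes compared between the classes that differed by 1 or more, at 3.10. Over all genes 3.7% were higher by 1 or more.

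Of 15 matrix receptors, 7 were detected in at least 42 cells, against 34.6% of all genes. Itga6 and Itgb1, subunits of laminin-binding integrins, were detected in 82 and 81 cells with medians of 66.2 TPM and 190 TPM, and Itga7 in the fewest, 1 cell. Of the 12 compared between the classes, 2 were higher and 2 lower by 1 or more, against 3.7% and 4.68% of all genes. Ddr2, a receptor for fibrillar collagen, was higher by 2.07 and Dag1, which encodes dystroglycan, by 1.27, while Itga5 and Itgb1 differed by -1.26 and -1.22. Of 9 genes for matrix degradation and its control, 5 were detected in at least 42 cells, against the same 34.6%. Timp3, a protease inhibitor held in the matrix, was detected in 82 cells with a median of 134 TPM, Mmp2, a protease that cuts type IV collagen, in 81 cells with a median of 80.7 TPM, and Mmp9 in 1 cell. Of the 8 compared between the classes, 1 was higher by 1 or more, Timp2 at 1.76, and 1 lower, Mmp15 at -1.13. The shares over all genes were again 3.7% and 4.68%.

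The second index of each library barcode splits the cells into 7 sets of 12, and the pattern was looked at within each. The core sum exceeded the fibrillar sum in 11 or 12 of 12 cells in every set, and the median core share ran from 84.2% to 98.9%. Col4a1 was detected in 12 of 12 cells in every set, Lama4 in 11 or 12, Col1a2 in 3 to 8 and Col3a1 in 4 to 8. Mesenchyme-marked cells numbered from 3 to 6 per set. The median ratio of Col4a1 to Col4a2 moved more, from 1.06 to 3.39 over the sets, and the median number of fibrillar collagens detected per cell from 1.5 to 5. The share of cells with the α5, β1 and γ1 laminin chains ran from 0% to 16.7% over the sets. The median difference between the classes ran from 0.26 to 3.03 for the fibrillar collagens and from -1.01 to -0.10 for the core.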

How the data were processed

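RNA of single cells, taken up on a C1 chip that holds cells between 10 and 17 µm, was turned into full-length cDNA by SMARTer chemistry and read at 67 bp, per the labels' protocols. The values are TPM computed by the authors and deposited as 1 table of 20308 genes by 84 cells, whose column sums run from 999998 to 1000002. Tools listed in the submitters' processing notes are Bowtie 0.12.9, RSEM 1.2.3 and CASAVA 1.8.2, with mm10 as the build. How they were run, and on which annotation, is not given in the sources used here. From the table, detection at TPM 1, a high level at TPM 10, log2(TPM + 1) with a pseudocount of 1 and sums of TPM were computed with Python 3.11.15, pandas 2.3.3 and scipy 1.17.1. The class difference, a Pearson correlation and the interval of a median were tried on simulated normal values, without the many zeros of these data. Other steps were not tried in that way. The log scale understates differences of low genes. Exact Clopper-Pearson intervals are at the 95% level, and the limit given for 0 cells is 3 counts in 84. A share of TPM depends on all other genes of the cell, since each column has a fixed total.

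The 61 members and 24 gene lists (202 genes, of which 201 had a row) were chosen with earlier results of these data known. The values of 1 member are not reported here. Named in full are the 3 members with the highest median of each member list, every member detected in at least 42 cells, and every fibrillar collagen detected in at least 5 cells. For each pathway list the 2 genes detected in most cells and the 1 in fewest are named, and 5 unlisted genes for likeness to each of Col4a1, Lama4 and Col3a1. Genes of the pathway lists that differed by 1 or more between the classes are also named, as are the core genes and other members given with their values, and these were chosen after their values were seen. Coordinates come from RefSeq on GRCm38.p6. Alternatives were other detection levels, pseudocounts and scalings, other cuts on the markers, a Ward clustering, cells left out and the 7 index sets. The mesenchyme list without Fbn2 was added after seeing the data, since that gene reached TPM 10 in 60 cells. No doublet caller was run on 84 cells.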

Additional observations from a re-analysis of the deposited data

How the results depend on the processing

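Among 72 alternative values for the 9 main results, 0 changed direction. Most of them are counts or shares, which cannot be negative and have no direction to change. Of the 72, 47 stayed inside an interval around the reported value and 25 did not. That interval is over cells for 7 results, but for the class differences it is one of the median over genes, which for 8 fibrillar collagens spans all of them, so it says little about their stability: their median ran from 0.26 to 3.03 over the index sets and from 0.51 to 2.57 over the pseudocounts. Of the 10 members that differed by 1 or more between the classes, Col1a1, Col1a2 and Col3a1 did so under all 9 alternatives, and the other 7 fell under 1 in 18 values in all, most often Col4a2, in 5. The alternative with every gene above 0 in any cell is among the 9 and cannot change the difference of a single gene. Core genes detected per cell, 11 as reported, came to 12 above 0 TPM and 9 at TPM 10, and the lowest index set gave 10. Fibrillar collagens detected per cell, 2 as reported, came to 5 above 0 TPM, 1 at TPM 10 and 1 without the mesenchyme-marked cells, and the index sets ran from 1.5 to 5. The share of cells with the α4, β1 and γ1 laminin chains, 88.1% as reported, came to 97.6% above 0 TPM, 65.5% at TPM 10 and 94.2% without the mesenchyme-marked cells, and the lowest index set gave 66.7%. With α5 in place of α4 the share, 3.57% as reported, came to 0% at TPM 10 and ran from 0% to 16.7% over the index sets. Core above fibrillar TPM came to 100% of cells without the mesenchyme-marked cells and in the highest index set, and to 98.8% with Sparc and Fn1 counted as core. The median core share came to 98.8% without the mesenchyme-marked cells and ran from 84.2% to 98.9% over the index sets. The ratio of Col4a1 to Col4a2 ran from 1.06 to 3.39 over the index sets. The core difference between the classes came to -1.03 between 2 Ward clusters and to -1.01 in the lowest index set. Between those clusters the median of all genes was -0.16. Without Fbn2 in the mesenchyme list, 25 cells were marked, and the median differences were 1.12 for the fibrillar collagens and -0.62 for the core. The cause of these movements was not tested. No paired analysis was possible because all cells form 1 group. Depth is unknown, so a gene that was not detected cannot be called absent.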

Other observations

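Col22a1 and the procollagen protease Adamts2 were detected widely but at a low level throughout. Of the 1977 genes detected in at least as many cells as Col22a1 (80 of 84), 2, Col22a1 among them, had a highest value no greater than its 11.4 TPM. Of the 3555 genes detected in at least as many cells as Adamts2 (69 of 84), Adamts2 alone had a highest value no greater than its 7.27 TPM. These genes were picked out after their values were seen.

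Numbers of cells are given here for some further members that lie side by side in the genome. On chromosome X, Col4a5 was detected in 13 cells and Col4a6, with 1274 bases between them, in 4 cells. Col4a3 and Col4a4, whose spans on chromosome 1 share 114 bases in a head-to-head order like that of Col4a1 and Col4a2, were detected in 0 and 1 cells. On chromosome 10, Col6a1 and Col6a2, with 85161 bases between them, were detected in 8 and 12 cells. They were detected together in 4, against 1.14 if detection were independent, with a Spearman rho of 0.53.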
